A study of Rattus norvegicus with 9 samples.

Results

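The 9 T lineage transcription factors below were followed in peripheral blood mononuclear cells (PBMC, the lymphocytes and monocytes left after density separation of blood) of rats on 2 diets. The members were fixed as Foxp3, Tbx21, Gata3, Bcl6, Bcl11b, Tcf7, Lef1, Eomes and Runx3. A probe belonged to a member when its gene name in the array files was that symbol, or when its accession was a RefSeq transcript of that gene. This gave 10 probes for 8 of the 9 genes, out of 41012 probes on the array. Eomes, the T-box factor of memory and cytotoxic lymphocytes, matched no probe under the rule and was not analysed here.

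All animals were male Wistar rats aged 6 months, bled from the saphenous vein in the fed state, with PBMC separated on Ficoll. The control group (4 animals) ate standard chow. The cafeteria group (5 animals) had, from the age of 2 months and for 4 months, a fat-rich, energy-dense choice of foods besides chow, which is a model of diet-induced obesity. The labels state that another control animal was dropped because its RNA yield was low. The arrays were read in 2 colours, with the RNA of a single animal in Cy5 and a pool of all samples in Cy3, and the dyes were never swapped. Every value below is the log2 ratio of an animal to that pool unless stated, so 0 is the level of the pool. Animals are named by group and by the number in the labels, and equal numbers in the groups name different animals.

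These factors act in sequence and in opposition during T cell life. Bcl11b commits progenitors to the T lineage and keeps mature T cells in it, and Tcf7 and Lef1, relatives that bind the same short DNA motif through an HMG box, maintain naive and memory T cells. Tbx21 (T-bet), Gata3, Foxp3 and Bcl6 then direct the helper fates known as Th1, Th2, regulatory and follicular helper cells, and Runx3 directs the cytotoxic fate. Several also work outside T cells: Tbx21 and Runx3 in NK cells, and Bcl6 in B cells and monocytes.

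All 10 probes were well above background on all 9 arrays. Signal was well above background for 58.8% to 66.7% of the spots. The background model (normexp) went wrong on 2 arrays, control 4 and cafeteria 4. Its fitted background SD in Cy5 was 997 and 946 intensity units there, against 1.17 to 66.3 on the other arrays, although the median background-subtracted Cy5 intensity of those 2 arrays (62.5 and 67.3) lay within the range of the others (53.3 to 104). After correction the 5th percentile of log2 Cy5 over the probes tested was 9.6 and 10.3 on these 2 arrays and 6.66 to 7.95 on the others. Foxp3, a dim probe, stood there at 0.038 and -0.051, against 0.44 and -0.28 after plain subtraction of the local background. Several results that move with this step are therefore also given after plain subtraction, a setting added after the data were seen. The 9 arrays lay on 7 slides, of which slide 3 (control 1 and cafeteria 1) and slide 5 (control 13 and cafeteria 10) held both groups. A diet difference with slide as a block therefore rests on the arrays of these slides alone, and its p-value has little power. Markers of the cell types PBMC should hold were well measured: 9 of 9 T cell, 9 of 9 B cell, 10 of 10 NK cell and 9 of 10 monocyte markers on the array passed the filter on dim probes. Markers of other blood cells passed too, with 10 of 10 erythroid, 8 of 8 platelet and 7 of 10 neutrophil genes.

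No member probe passed the threshold for a diet difference after adjustment over the 25808 probes tested (limma, adjusted p from 0.941 to 0.997). Exact permutation p-values below are two-sided, over regroupings of the 9 animals, for that probe alone and unadjusted. Over the whole array 0.00775% of probes (2) were called at an adjusted p under 0.05. Of the 10 member probes, 8 had a lower mean in cafeteria animals and 2 a higher one. Their median difference was -0.15, where the median of all probes was 0.0092 and 45.7% of all probes were lower. Of the member probes 4 of 10 (Runx3, Foxp3, Bcl11b probe 1 and Tbx21) had an unadjusted limma p under 0.05, against 4.40% of all probes tested. The members were chosen with earlier results of these data known, and several of them co-vary across animals. Their counts beside the shares of all probes are therefore a description only. Groups did not overlap for 1 of 10 probes, Runx3, against 1.27% of all probes. After plain subtraction the probes with an unadjusted p under 0.05 were again 4 of 10 (5.67% of all probes), and 2 of 10 did not overlap, Runx3 and Foxp3 (2.01% of all probes). Only Bcl11b probe 1 kept an unadjusted p under 0.05 with slide as a block (1 of 10, against 3.14% of all probes) and with median centring in place of loess (1 of 10, against 1.07%). With both arrays numbered 4 left out, 3 of 10 did not overlap, Foxp3, Tbx21 and Runx3, against 5.14% of all probes with those 7 arrays. That count was 2 without control 1 (2.19% of all probes), without control 4 (3.35%) or without cafeteria 4 (3.21%), and 3 without cafeteria 1 (3.48%). In none of the 23 other settings was a member probe called, and the lowest adjusted p was 0.39.

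**Figure D1:**
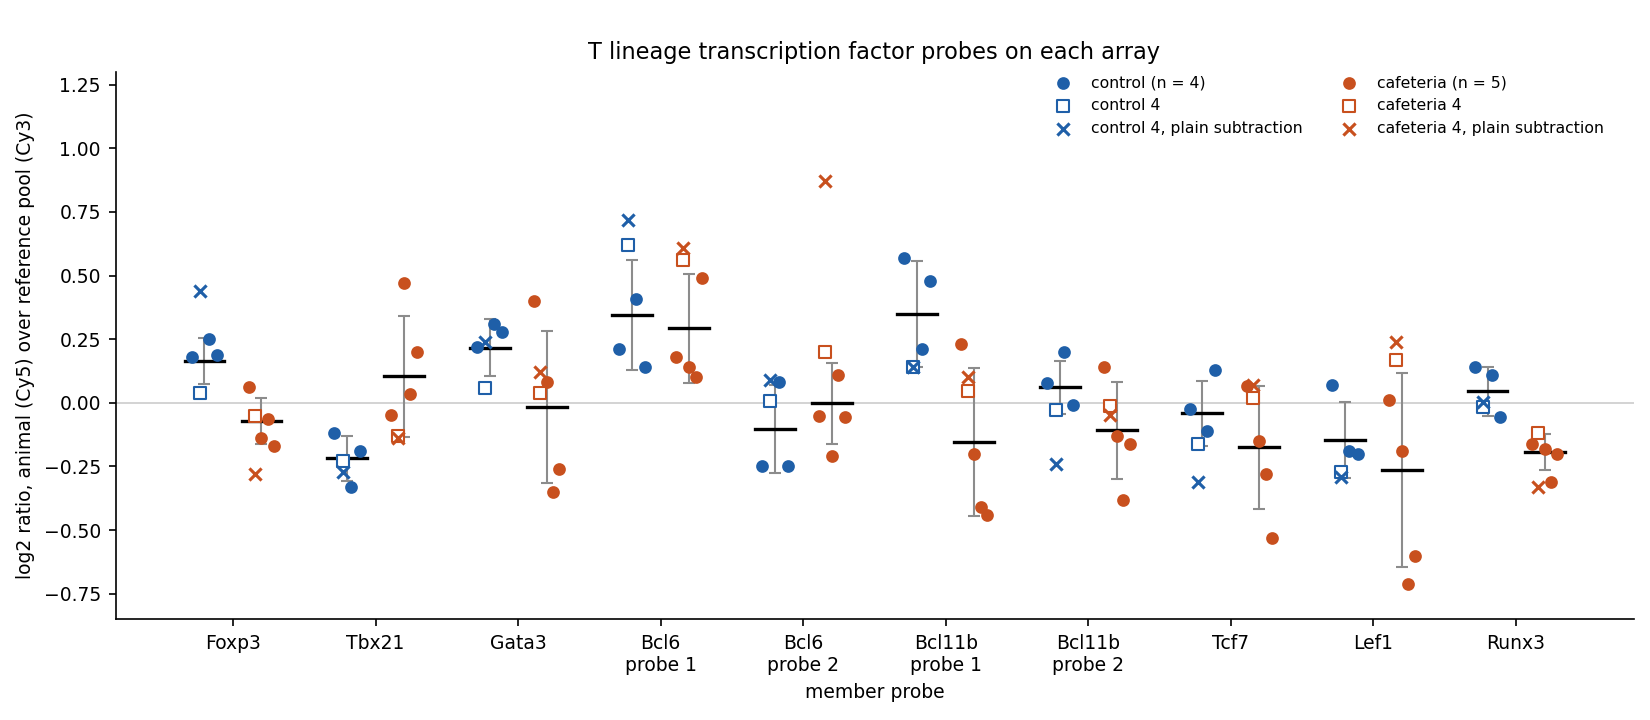
Log2 ratio of each animal to the reference pool (vertical axis) for the 10 member probes (horizontal axis), control in blue and cafeteria in orange. Bars are group means and grey whiskers the SD, squares are the arrays numbered 4, and crosses are the same arrays after plain subtraction. The 5 cafeteria values of Runx3 lie below all 4 control values, and the crosses move Foxp3 apart in the same direction.

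Bcl11b, the commitment factor, had the largest difference among the member probes at probe 1, and this was lower in cafeteria animals. Probe 1 (A_44_P185355, chr6:132294349-132294408, build rn4) gave 0.57, 0.14, 0.21 and 0.48 in control animals 1, 4, 7 and 13, and 0.23, 0.047, -0.20, -0.41 and -0.44 in cafeteria animals 1, 4, 7, 10 and 13. Control animals 1 and 13 were high, cafeteria animals 10 and 13 were lowest, and only cafeteria 1 reached into the control range. The difference was -0.51 (SE 0.15), a 1.42-fold lower ratio, with two-sided exact permutation p = 0.0397 and limma adjusted p = 0.997. It was -0.35 within slide 3 and -0.90 within slide 5. In a bulk sample such as PBMC, fewer cells of a type and less RNA per cell cannot be told apart, and this holds for every member.

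Bcl11b probe 2 (A_44_P352043, chr6:132370182-132370241) lies 75.8 kb from probe 1. It gave 0.079, -0.029, 0.20 and -0.007 in control animals 1, 4, 7 and 13, and 0.14, -0.012, -0.13, -0.38 and -0.16 in cafeteria animals 1, 4, 7, 10 and 13. The groups overlapped, with cafeteria 1 among the controls. The difference was -0.17 (SE 0.10, exact permutation p = 0.167, limma adjusted p = 0.997), 0.059 within slide 3 and -0.37 within slide 5. Plain subtraction moved control 4 to -0.24 and gave a difference of -0.16 (SE 0.13). The diet difference of probe 1 exceeded that of probe 2 by -0.34, which did not pass after adjustment for the 2 probe pairs compared (two-sided exact permutation p = 0.0317, adjusted 0.0635). After plain subtraction the excess was -0.35 (two-sided exact permutation p = 0.0556, adjusted 0.111). Across the 9 arrays the probes went together, with r = 0.772 (exact permutation p = 0.013, adjusted 0.026) and rho = 0.817 (exact permutation p = 0.0108, adjusted 0.0215). Without cafeteria 10 and 13, the arrays farthest from the median of probe 1, r was 0.509, so the relation rests in part on them. After plain subtraction r was 0.734 (exact permutation p = 0.0269, adjusted 0.0538). The relation also missed the threshold after adjustment without cafeteria 7 (r = 0.76), cafeteria 10 (0.69) or cafeteria 13 (0.768). No exon or untranslated region is given for any probe in the files.

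**Figure D2:**
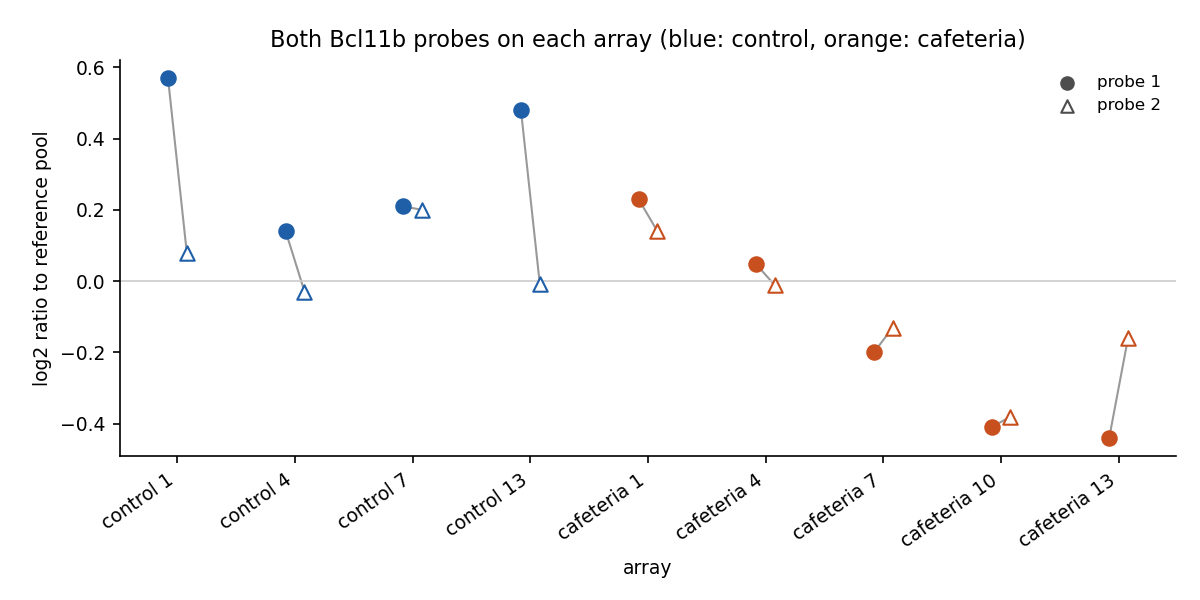
Log2 ratio to the reference pool (vertical axis) of Bcl11b probe 1 (circles) and probe 2 (triangles) on each array (horizontal axis), control in blue and cafeteria in orange. Lines join the probes of 1 array: probe 1 lies 0.49 above probe 2 in controls 1 and 13, and 0.27 below it in cafeteria 13 (difference -0.27).

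Tcf7 (A_44_P497262, chr10:37691480-37691539, rn4), which keeps naive and memory T cells in their state, gave -0.024, -0.16, -0.11 and 0.13 in control animals 1, 4, 7 and 13. In cafeteria animals 1, 4, 7, 10 and 13 it gave 0.065, 0.02, -0.15, -0.28 and -0.53. Cafeteria 13 was the lowest animal and the other cafeteria animals lay near or within the control range. The difference was -0.13 (SE 0.12, exact permutation p = 0.389, limma adjusted p = 0.997), 0.088 within slide 3 and -0.41 within slide 5. Plain subtraction moved control 4 to -0.31 and gave a difference of -0.10 (SE 0.15, exact permutation p = 0.579, limma adjusted p = 0.983).

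Lef1 (A_44_P240702, chr2:228663333-228663392, rn4), its relative, gave 0.071, -0.27, -0.19 and -0.20 in control animals 1, 4, 7 and 13, and 0.013, 0.17, -0.19, -0.71 and -0.60 in cafeteria animals 1, 4, 7, 10 and 13. Cafeteria 10 and 13 stood below every control, while cafeteria 4 was the highest of all animals. The spread among cafeteria animals (SD 0.38, n = 5) was wider than among controls (SD 0.15, n = 4), and the difference was -0.12 (SE 0.18, exact permutation p = 0.532, limma adjusted p = 0.997). With the authors' values as given, where all probes shift by a median of 0.13, Lef1 and Tcf7 turn to 0.053 and 0.086. After each array of that table is centred they are -0.069 and -0.035. The low values of cafeteria 10 and 13 recur in Gata3, Bcl11b and Tcf7, so the promoters of these co-varying genes are shown for the motifs their own products bind.

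The windows of 300 bases around each gene's start are from RefSeq (build GRCr8), in gene orientation. Capitals mark CTTTG or its reverse CAAAG, the core bound by Tcf7 and Lef1, which is found in 53.8% of the 33469 windows of the same length:
Tcf7 promoter, chr10:36954230-36954529: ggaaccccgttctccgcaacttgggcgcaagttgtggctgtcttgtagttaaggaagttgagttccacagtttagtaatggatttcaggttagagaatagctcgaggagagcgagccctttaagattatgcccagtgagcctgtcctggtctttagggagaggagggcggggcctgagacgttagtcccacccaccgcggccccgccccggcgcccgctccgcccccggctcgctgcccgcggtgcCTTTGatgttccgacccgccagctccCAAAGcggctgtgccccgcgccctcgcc
Lef1 promoter, chr2:222340463-222340762: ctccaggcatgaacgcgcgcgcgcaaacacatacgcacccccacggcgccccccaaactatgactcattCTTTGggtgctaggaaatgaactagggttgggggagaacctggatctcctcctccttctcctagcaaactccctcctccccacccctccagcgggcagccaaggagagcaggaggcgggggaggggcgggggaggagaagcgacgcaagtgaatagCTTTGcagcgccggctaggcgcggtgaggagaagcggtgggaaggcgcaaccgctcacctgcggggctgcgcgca
Both windows hold 2 matches. In the Gata3 window capitals mark GATA (reverse TATC), the core bound by Gata3, found in 60.5% of windows:
Gata3 promoter, chr17:73553298-73553597: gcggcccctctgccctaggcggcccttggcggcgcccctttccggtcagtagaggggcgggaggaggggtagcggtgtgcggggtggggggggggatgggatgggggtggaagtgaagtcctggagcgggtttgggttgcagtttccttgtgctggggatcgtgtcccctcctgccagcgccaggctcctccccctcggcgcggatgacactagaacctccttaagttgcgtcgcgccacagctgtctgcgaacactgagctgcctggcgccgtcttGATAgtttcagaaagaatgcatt
It holds 1 match. Motifs this short are frequent, and a match here is a description of the letters only. Bcl11b has no entry in the promoter table used.

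Foxp3, the factor that defines regulatory T cells, was lower in cafeteria animals, and its size depended on the background step. Its probe (A_44_P215626, chrX:26957757-26957914, rn4) gave 0.18, 0.038, 0.25 and 0.19 in control animals 1, 4, 7 and 13. In cafeteria animals 1, 4, 7, 10 and 13 it gave 0.062, -0.051, -0.14, -0.063 and -0.17. Only cafeteria 1 lay inside the control range, above control 4 alone. The difference was -0.24 (SE 0.067), a 1.18-fold lower ratio (exact permutation p = 0.0238, limma adjusted p = 0.978). It was -0.12 within slide 3 and -0.25 within slide 5, and -0.19 with slide as a block, where the unadjusted p was no longer under 0.05. After plain subtraction control 4 stood at 0.44 and cafeteria 4 at -0.28, the groups no longer overlapped, and the difference was -0.43 (SE 0.091, exact permutation p = 0.0159, limma adjusted p = 0.397). The scanner software's own log ratio gave -0.61, and Cy5 alone, without the reference but still after normexp, -0.15.

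Tbx21, the Th1 and NK cell factor, was the one gene of the set with every probe higher in cafeteria animals. Its probe (A_44_P206563, chr10:85818529-85818588, rn4) gave -0.12, -0.23, -0.33 and -0.19 in control animals 1, 4, 7 and 13, and -0.049, -0.13, 0.47, 0.033 and 0.20 in cafeteria animals 1, 4, 7, 10 and 13. Cafeteria 7 and 13 were the highest animals, and only cafeteria 4 lay within the control range. The difference was 0.32 (SE 0.11), a 1.25-fold higher ratio (exact permutation p = 0.0397, limma adjusted p = 0.997). It was 0.073 within slide 3 and 0.23 within slide 5, and 0.15 with slide as a block. Of the NK cell markers 8 of 10 were higher in cafeteria animals, and their mean level ran from -0.19 to 0.49 there and from -0.31 to -0.011 in controls. The highest levels were those of cafeteria 7 (0.49) and 13 (0.25). Within slide 3 and slide 5 the marker level was slightly lower in the cafeteria animal (-0.081 and -0.033), unlike Tbx21. The part of NK cells in the Tbx21 difference was not tested.

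Gata3 (A_44_P383310, chr17:79991712-79991771, rn4), the Th2 factor that is also needed for T cell development, gave 0.22, 0.059, 0.31 and 0.28 in control animals 1, 4, 7 and 13. In cafeteria animals 1, 4, 7, 10 and 13 it gave 0.40, 0.039, 0.081, -0.35 and -0.26. Cafeteria 10 and 13 were far below the controls, whereas cafeteria 1 was the highest animal of all. The difference was -0.24 (SE 0.14, exact permutation p = 0.19, limma adjusted p = 0.997), with opposite signs within slide 3 (0.18) and slide 5 (-0.63). Plain subtraction moved control 4 to 0.24, and every cafeteria animal except cafeteria 1 then lay below all controls. The difference was then -0.29 (SE 0.15, exact permutation p = 0.143, limma adjusted p = 0.94).

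Bcl6, a repressor that drives follicular helper T cells and is also strong in monocytes, differed little between diets at either probe. Probe 1 (A_44_P287301, chr11:79030469-79030528, rn4) gave 0.21, 0.62, 0.41 and 0.14 in control animals 1, 4, 7 and 13, and 0.18, 0.56, 0.14, 0.10 and 0.49 in cafeteria animals 1, 4, 7, 10 and 13. The groups overlapped throughout, and the difference was -0.051 (SE 0.13, exact permutation p = 0.722, limma adjusted p = 0.997). Its sign was turned by the authors' values (0.076), by array weights (0.065) and by leaving out control 4 (0.041).

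Bcl6 probe 2 (A_44_P183241, chr11:79029351-79029410), 1118 bases away, gave -0.25, 0.0065, 0.083 and -0.25 in control animals 1, 4, 7 and 13. Cafeteria animals 1, 4, 7, 10 and 13 gave -0.05, 0.20, -0.21, 0.11 and -0.054. These values overlapped too, and the difference was 0.10 (SE 0.10, exact permutation p = 0.405, limma adjusted p = 0.997). After plain subtraction it was 0.24 (SE 0.21), with cafeteria 4 alone at 0.87. The diet differences of the Bcl6 probes were not separable (-0.15, two-sided exact permutation p = 0.246), nor did the probes track each other beyond the spread of the animals (r = 0.534, exact permutation p = 0.134; rho = 0.3, exact permutation p = 0.437; r = 0.306 without control 4 and cafeteria 4).

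Runx3, which directs cytotoxic T cells and acts in NK cells, was lower in every cafeteria animal than in every control. Its probe (A_43_P13119, chr5:153972626-153972685, rn4) gave 0.14, -0.017, 0.11 and -0.054 in control animals 1, 4, 7 and 13, and -0.16, -0.12, -0.18, -0.31 and -0.20 in cafeteria animals 1, 4, 7, 10 and 13. The groups did not overlap, and the SD within them was 0.095 (n = 4) and 0.07 (n = 5). The difference was -0.24 (SE 0.064), a 1.18-fold lower ratio, with limma adjusted p = 0.941. A two-sided exact permutation test of this probe alone gave p = 0.00794, the smallest that regrouping 4 and 5 animals allows. It was -0.30 within slide 3 and -0.25 within slide 5, and -0.28 with slide as a block, where the unadjusted p was no longer under 0.05. Plain subtraction moved cafeteria 4 from -0.12 to -0.33 and gave -0.30 (SE 0.074, exact permutation p = 0.00794, limma adjusted p = 0.481). The values over 23 other settings ran from -0.34 to -0.16, the last with median centring in place of loess. Groups overlapped there and with Cy5 alone (-0.23). Erythroid markers stood the other way: 9 of 10 were higher in cafeteria animals, with mean levels from -0.47 to -0.07 there and from -0.65 to -0.33 in controls. Over the 9 arrays r with the erythroid markers was -0.672 for Runx3 and -0.684 for Foxp3. Neither passed after adjustment over 72 relations of members with marker lists (adjusted exact permutation p = 0.231 for each). With group means removed these r values were -0.0469 and -0.129. Runx3 ran against the B cell markers to a like degree (r = -0.689, adjusted exact permutation p = 0.231), and that r was -0.481 with group means removed. The part of erythroid cells or B cells in the Runx3 difference was not tested.

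The first RefSeq window of Runx3 is shown because Runx factors bind ACCACA (reverse TGTGGT, capitals), which 17.3% of windows hold:
Runx3 promoter, chr5:152644020-152644319: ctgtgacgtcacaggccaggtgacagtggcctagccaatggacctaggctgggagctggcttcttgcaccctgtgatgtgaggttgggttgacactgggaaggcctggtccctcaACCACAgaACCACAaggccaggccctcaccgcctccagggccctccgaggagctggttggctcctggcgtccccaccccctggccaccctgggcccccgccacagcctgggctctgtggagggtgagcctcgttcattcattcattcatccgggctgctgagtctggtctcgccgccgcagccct
It has 2 matches, close to each other, and the second Runx3 window has 0. The windows of Tbx21 and Eomes, searched for the T-box core AGGTGT (reverse ACACCT, found in 13.6% of windows), hold 0 matches and are not shown.

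**Figure D3:**
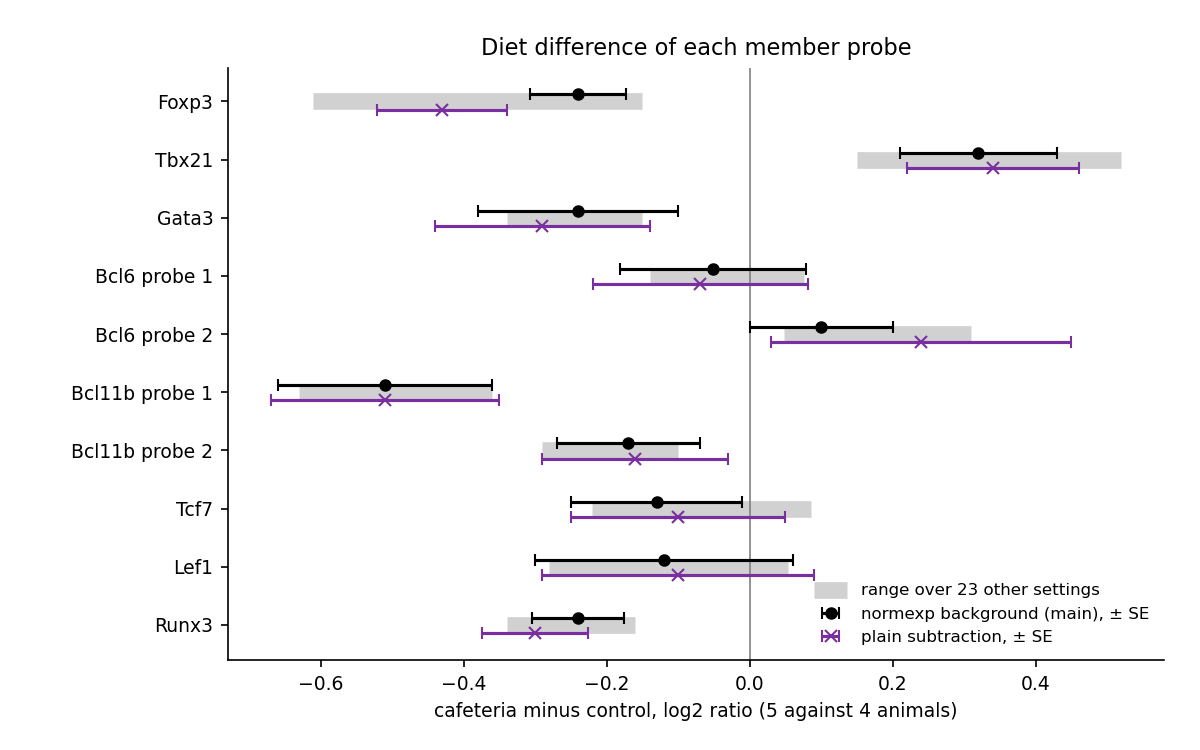
Cafeteria minus control difference in log2 ratio (horizontal axis) for each member probe (vertical axis), with the SE, from the main analysis (circles) and after plain subtraction (crosses). Grey bars give the range over 23 other settings: those of Foxp3, Tbx21, Gata3, both Bcl11b probes, Bcl6 probe 2 and Runx3 stay on 1 side of 0, and those of Bcl6 probe 1, Tcf7 and Lef1 cross it. Settings that change only the filter or the variance prior cannot move a difference.

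Across the 9 animals Gata3, Bcl11b, Tcf7 and Lef1 tended to be high or low together, Tbx21 had negative r with every other member, and r of Bcl6 with the others ran from -0.332 to 0.24. All 28 pairs were compared, using probe 1 for Bcl6 and Bcl11b, the one with the stronger mean signal. Pearson r was positive in 17 of 28 pairs, and in 8 of 28 its exact permutation p was under 0.05 after adjustment (each 0.0401). No pair passed by Spearman's rho (lowest adjusted exact permutation p 0.0749). Tcf7 and Lef1 had r = 0.783 (rho = 0.667), 0.926 without control 13 and cafeteria 13, and 0.775 with group means removed. Bcl11b and Tcf7 had r = 0.811 (rho = 0.783), 0.878 with group means removed and 0.56 without cafeteria 10 and 13. Gata3 and Bcl11b had r = 0.839 (rho = 0.783), 0.536 without those 2 animals. Gata3 and Lef1, at r = 0.759 (adjusted exact permutation p = 0.0618), came to -0.0134 without them, so this relation rests on cafeteria 10 and 13. Bcl11b and Lef1, at r = 0.72 (adjusted exact permutation p = 0.0749, rho = 0.517), likewise fell to 0.159 without cafeteria 10 and 13. Foxp3 went with Bcl11b (r = 0.86, rho = 0.867, 0.913 without control 7 and cafeteria 13) and with Runx3 (r = 0.806, rho = 0.8). With group means removed these r values fell to 0.652 and 0.335. Foxp3 and Tbx21 ran in opposite directions (r = -0.80, rho = -0.80), -0.699 without control 7 and cafeteria 13 and -0.553 with group means removed. Gata3 with Tcf7 (r = 0.802, rho = 0.717, and 0.493 without cafeteria 10 and 13) and Bcl11b with Runx3 (r = 0.796, rho = 0.80, and 0.647 without them) completed the 8. With group means removed Gata3 with Tcf7 was 0.772 and Bcl11b with Runx3 0.465.

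These calls hung on small margins. After plain subtraction 0 of 28 pairs passed by r, with an adjusted exact permutation p of 0.0961 for Gata3 and Bcl11b (r = 0.859) and of 0.105 for Tcf7 and Lef1 (r = 0.783). Foxp3 and Tcf7 went from r = 0.622 to 0.218, and Foxp3 and Bcl11b from 0.86 to 0.643. With Cy5 alone Foxp3 and Bcl11b had r = 0.299. Leaving out control 1, 4 or 13, or cafeteria 7, 10 or 13, left 0 pairs, and leaving out control 7 left 1. The count was 7 without cafeteria 1 or without cafeteria 4, and 1 with both arrays numbered 4 left out. No slide held more than 2 arrays, so r within a slide could not be had.

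**Figure D4:**
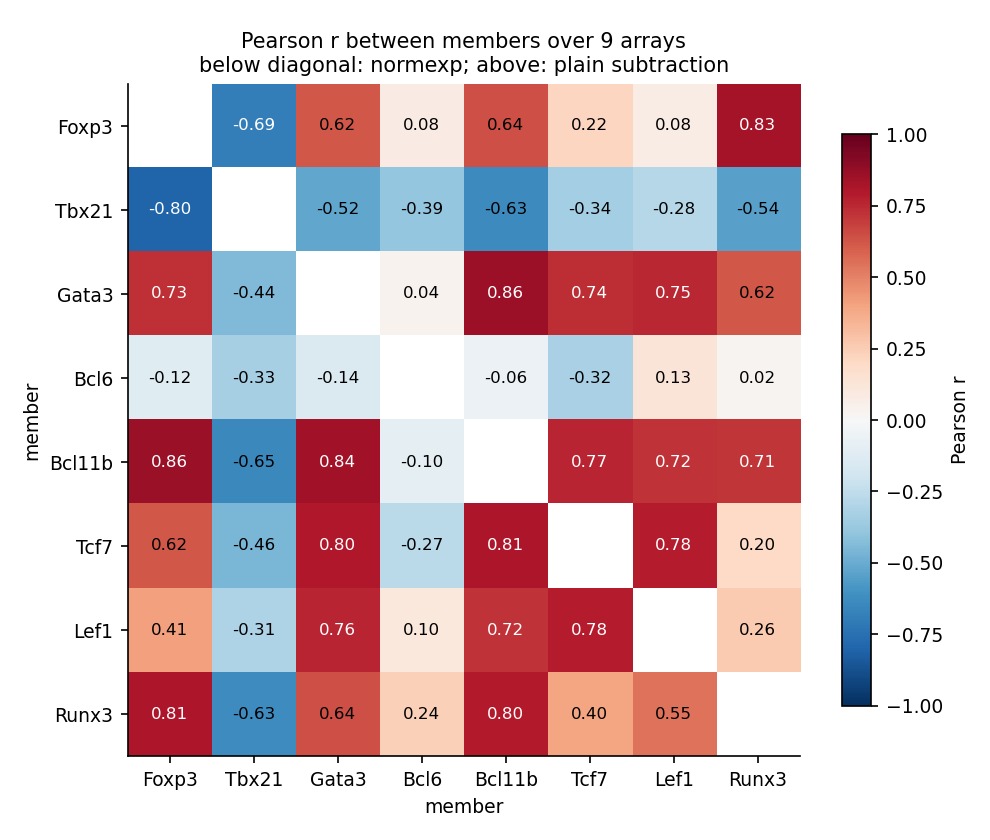
Pearson r over 9 arrays for each pair of the 8 measured members (both axes, colour scale from -1 to 1), below the diagonal from the main analysis and above it after plain subtraction. Gata3, Bcl11b, Tcf7 and Lef1 have r from 0.72 to 0.839 below the diagonal, and the Tbx21 row and column are negative on both sides of it.

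Some members also tracked the marker genes of whole cell types, a comparison added after the data were seen (72 relations of 8 members with 9 marker lists, none of which holds a member). For Lef1, Runx3 and Bcl6 no relation passed after adjustment, by r or by rho. Tcf7 followed the 9 T cell markers most closely (r = 0.924, rho = 0.95, adjusted exact permutation p = 0.0144 and 0.0127; r = 0.847 without cafeteria 1 and 13), and r lay between 0.826 and 0.98 in 17 other settings. Tbx21 followed the 10 NK cell markers (r = 0.913, adjusted exact permutation p = 0.0378; rho = 0.75, adjusted 0.229). Without cafeteria 7 and 13 that r was 0.458, so it rests on them. Of the members, 3 of 8 ran against the 9 B cell markers by r: Gata3 (r = -0.939, adjusted exact permutation p = 0.0144; rho = -0.867, adjusted 0.108), Bcl11b (r = -0.892, adjusted 0.0357) and Tcf7 (r = -0.824, adjusted 0.0395). By rho Foxp3 ran against them too (rho = -0.95, adjusted exact permutation p = 0.0127; r = -0.873, adjusted 0.0513). With median centring in place of loess the B cell relations were not seen, at r = -0.00483 for Gata3, -0.105 for Bcl11b and 0.0416 for Tcf7. After plain subtraction Tcf7 with T cell markers (0.946), Tbx21 with NK cell markers (0.908) and Gata3 with B cell markers (-0.838) passed by r (adjusted exact permutation p 0.0341, 0.0412 and 0.0381). So did Bcl11b (0.874, adjusted exact permutation p 0.0381) and Gata3 (0.817, adjusted 0.0489) with T cell markers. Bcl11b (-0.848, adjusted exact permutation p 0.0543) and Tcf7 (-0.769, adjusted 0.133) with B cell markers did not pass. Foxp3 with B cell markers came to rho = -0.467 (adjusted exact permutation p 0.589) and r = -0.481 (adjusted 0.545). By rho 0 of the 72 relations passed after plain subtraction (lowest adjusted exact permutation p 0.146). All 9 B cell markers were higher in cafeteria animals (median difference 0.30) and 8 of 9 T cell markers were lower (median difference -0.04), with 0 of either called. Over 17 other settings the B cell median ran from 0.23 to 0.49. The T cell median ran from -0.21 to 0.016, so its sign was not stable. The T cell marker level ran from -0.45 to 0.16 in cafeteria animals and from -0.28 to 0.15 in controls, and the B cell level from -0.28 to 0.36 and from -0.32 to 0.11. The part of cell composition in the members' values was not tested.

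**Figure D5:**
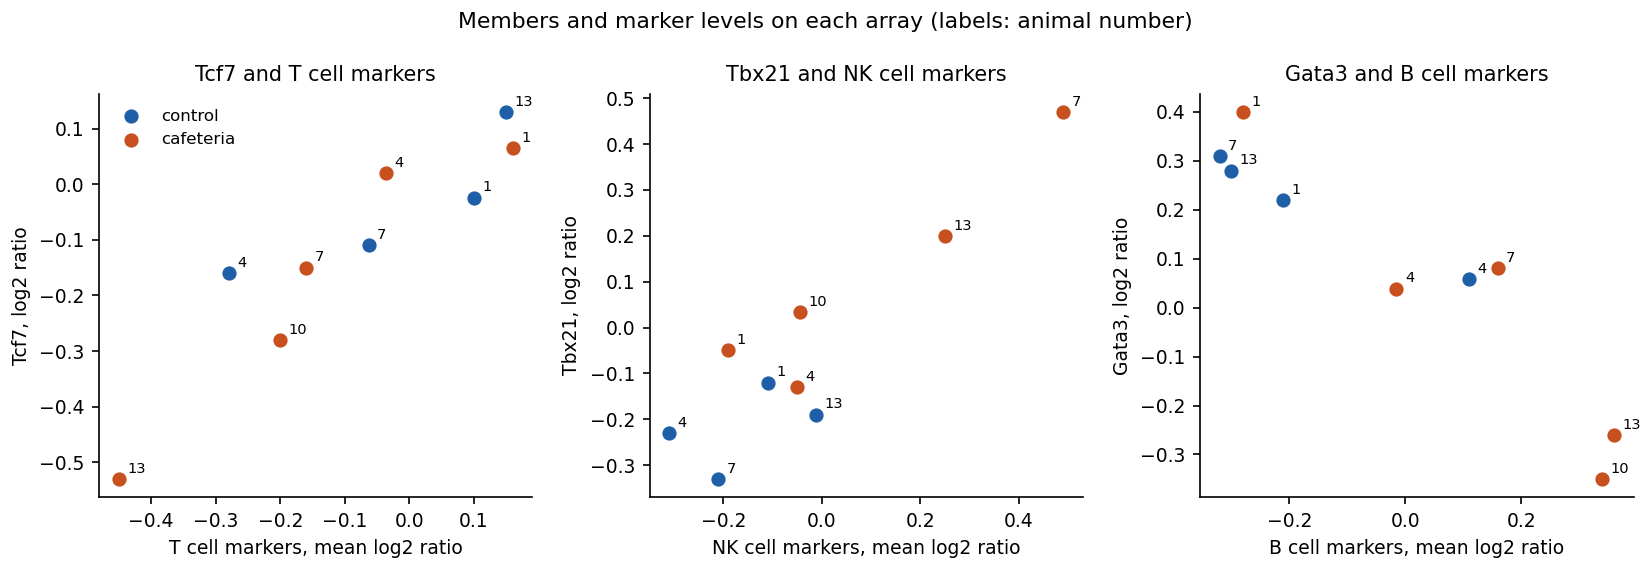
Log2 ratio of Tcf7, Tbx21 and Gata3 (vertical axes) against the mean log2 ratio of T, NK and B cell markers (horizontal axes), 1 point an animal with its number, control in blue and cafeteria in orange. Cafeteria 13 has the lowest Tcf7 (-0.53) and T cell marker level (-0.45), cafeteria 7 the highest Tbx21 (0.47) and NK cell marker level (0.49), and cafeteria 10 and 13 the lowest Gata3 with the highest B cell marker levels.

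Among genes that work with or under the members, no gene of any list was called in limma, and list medians stood beside a median of 0.015 over 10453 named genes, of which 43.0% were lower and 4.65% had an unadjusted p under 0.05. T cell identity genes (18 measured) were lower in 16, median -0.058, led by the costimulatory receptor Cd28 (-0.26, SE 0.091) and the receptor subunit Cd3e (-0.46, SE 0.21). They include all the T cell markers counted above, so the counts are not separate. Naive and central memory genes, the domain of Tcf7 and Lef1, were lower in 5 of 8 (median -0.15), with Il7r, the receptor of the survival cytokine IL-7, at -0.39 (SE 0.16). Genes associated with Th1 cells and T-bet were divided 5 to 5 (median 0.01), the chemokine Ccl5 at 0.39 (SE 0.26) and its fellow target Cxcr3 at -0.18 (SE 0.16). Those of Th2 cells and Gata3 were lower in 5 of 7, with the factor Maf at -0.18 (SE 0.068) and a median of -0.059 that became -0.15 after plain subtraction. Regulatory T cell genes were lower in 5 of 8 (median -0.043), with the IL-2 receptor chains Il2ra at -0.10 (SE 0.063) and Il2rb at 0.24 (SE 0.20). Follicular helper genes were higher in 5 of 8 (median 0.028), but the costimulator Icos (-0.29, SE 0.095) and Cd40lg (-0.29, SE 0.10), which signals to B cells, were lower. Cytotoxic effector genes, which Runx3 and Tbx21 promote, were higher in 10 of 13 (median 0.24), with Nkg7 at 0.38 (SE 0.14) and the granzyme Gzmc at -0.43 (SE 0.17). This list shares Nkg7, Prf1 and Gzmm with the NK cell markers. Partner and antagonist factors were higher in 12 of 26 (median -0.015), the Tcf7 and Lef1 coactivator Ctnnb1 at 0.14 (SE 0.052) and the corepressor Ncor1 at -0.23 (SE 0.10).

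The named genes most like each member over the 9 arrays, by r among 10406 genes, were Trerf1 (0.987) and Usp44 (0.976) for Gata3, Mboat2 (0.977) and Osbpl3 (0.96) for Tbx21, and Khdc4 (0.963) and Atrx (0.961) for Runx3. For Tcf7 they were Adcy6 (0.961) and Skap1 (0.938), an adaptor of T cell receptor signalling. Bcl11b was nearest to Gdf7 (0.955) and Ktn1 (0.947), Lef1 to Coa8 (0.944) and Nhp2 (0.924), Bcl6 to Mrpl1 (0.929) and Cebpd (0.888), a factor of monocytes, and Foxp3 to Ttc1 (0.926) and Hdhd2 (0.922). With 9 arrays and that many genes, high r values arise for any pattern, and these are given as a description.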

How the data were processed

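RNA of PBMC from 9 rats was measured on 2-colour arrays. The scanner files deposited by the authors give, per the file headers, intensity per spot (mean signal and median local background of Cy5 and Cy3) and the scanner software's own log10 ratio after its background subtraction and dye normalization. A further value table deposited by the authors was read as log2 from its values. It followed Cy5 (rank correlation per array 0.993 to 0.999), with array medians from 9.4 to 9.69; its centring and the use of the reference stay unknown. It was used only as an alternative, as given and with each array centred.

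From the intensities, background was corrected by normexp (offset 50), log2 ratios were normalized by loess within each array with control spots at weight 0, spots marked as non-uniform or population outliers were left out, and spots of a probe were averaged. Plain subtraction raised low results to a small positive value, then used the same offset of 50 and the same loess. Median centring and Cy5 alone, with all arrays brought to a common distribution, kept the normexp step and so its fault on the arrays numbered 4. Probes with Cy5 well above background on at least 4 arrays were kept. Arrays give no counts, and their number limits the precision. Positions are on rn4, per the file headers. Names were updated through RefSeq's gene list by transcript, symbol or synonym (47.4% of probes; 83 names were dropped because the chromosome differed). All probes tested were fitted with limma 3.58.1 (statmod 1.5.0, R 4.3.3, package data.table at version 1.17.8, jsonlite 2.0.0), comparing cafeteria with control arrays, with Benjamini-Hochberg adjustment over all of them and a threshold of 0.05. Permutation tests were exact and two-sided, over all splits of the animals or 362880 pairings, in Python 3.11.15 (numpy, scipy, pandas; figures with matplotlib 3.10.9). The fit and the tests were first tested on simulated data.

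Named genes were every member probe; per gene list, up to 2 genes higher and 2 lower with the smallest unadjusted p; and per member the 2 genes of highest r. The text gives some of these. The members and lists were chosen with earlier results of these data known. Alternatives covered the background, the source of the log ratio, normalization, filter, slide, replicate numbers, array weights, variance prior and each animal left out. Animals with the same number in both groups did not deviate together (correlations of their deviations -0.0479, 0.112, 0.0992 and -0.145). The main analysis did not pair them, and so few correlations cannot exclude a pairing.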

Additional observations from a re-analysis of the deposited data

Results flagged for a closer look

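Each member probe was examined in each group for an animal far from the others (gap to the nearest animal over the group's range, against Dixon's 95% critical value). Of 20 such groups of values, 0 held one, where chance gives about 1 in 20.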

How the results depend on the processing

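Over 23 other settings the differences of Foxp3, Tbx21, Gata3, Runx3, both Bcl11b probes and Bcl6 probe 2 kept their sign, and 0 member probes were called. Bcl6 probe 1 turned to 0.076 with the authors' values, 0.065 with array weights and 0.041 without control replicate 4, and ran from -0.12 to 0.041 with 1 animal left out. Tcf7 turned to 0.086 and Lef1 to 0.053 with the authors' values, where 5 rather than 8 member probes were lower and 2 rather than 4 had an unadjusted p under 0.05 (12.7% of all probes there). That last count was 1 with median centring (1.07%) and with slide as a block (3.14%). Member probes whose groups did not overlap numbered 2 with no background correction (1.97% of all probes), the scanner software's log ratio (2.02%), the authors' values (4.49%) and plain subtraction (2.01%), 3 with the authors' values centred (2.27%) and with both arrays numbered 4 left out (5.14%), 0 with median centring (0.252%) and Cy5 alone (1.55%), and 1 to 3 with 1 animal left out (1.76% to 3.48%). The 2 probes called on the whole array became 0 with no background correction, the scanner ratio, median centring, Cy5 alone, the authors' values (as given or centred), slide as a block, array weights, a trended robust prior, plain subtraction or both arrays numbered 4 left out, and 0 to 2 with 1 animal left out. The cause was not tested.

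The replicate block, with the number in the labels as a term, left 0 probes called on the whole array, and again 8 member probes lower, 4 with an unadjusted p under 0.05 and 1 without overlap. It changed no other call. Same-numbered animals gave no sign of a pairing, though this cannot exclude one.

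The excess of the diet difference of Bcl11b probe 1 over probe 2 passed with median centring (-0.33, two-sided exact permutation p = 0.0238) and ran from -0.43 to -0.27 with 1 animal left out, passing without control 7. Agreement of the Bcl11b probes no longer passed with Cy5 alone (r = 0.737), plain subtraction (0.734) and both arrays numbered 4 left out (0.775), and ran from 0.69 to 0.829 with 1 animal left out, not passing without cafeteria 7, 10 or 13. Co-varying pairs that passed numbered 0 with no background correction, the scanner ratio, Cy5 alone, the authors' values and plain subtraction, 1 with the authors' values centred and with both arrays numbered 4 left out, and 14 with median centring, where r was positive in 27 of 28 pairs. They ran from 0 to 7 with 1 animal left out. With median centring r of Foxp3 and Tbx21 turned to 0.226, and r of Tcf7 and B cell markers to 0.0416. Dim probes and 9 animals limit what these data can show: Foxp3, Runx3, Bcl6 probe 2 and Bcl11b probe 2 lay near the raised background of the arrays numbered 4. Gata3 and Tcf7 also moved on control 4 with plain subtraction, from 0.059 to 0.24 and from -0.16 to -0.31.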
